A study of Mus musculus with 24 samples.

Results

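The 9 genes described here encode the main proteins that the mouse mammary gland secretes into milk. They are the caseins Csn1s1, Csn1s2a, Csn2 and Csn3, the whey proteins Wap and Lalba, the iron-binding proteins Trf and Ltf, and the mucin-like Glycam1. They were chosen by name, matched to the count table by gene identifier, and all 9 were found among its 27179 genes. The libraries hold bulk RNA from mouse mammary tissue at puberty, dissected into mature ducts and terminal end buds (TEBs, the bulbs at the advancing front of the growing tree). Lineage-negative, EpCAM-positive cells were sorted into a Cd29-high basal gate and a Cd29-low luminal gate, which a fluorescent reporter divided further. One mouse model, Elf5-rtTA-IRES-GFP, carries GFP with the luminal transcription factor Elf5, and its groups are basal, luminal GFP-positive and luminal GFP-negative cells. The other, PR-cre/Rosa26-LSL-eYFP, switches on YFP where a progesterone receptor Cre has acted, and its groups are basal, luminal YFP-positive and luminal YFP-negative cells. Each of these 6 gates was taken from ducts and from TEBs, with 2 replicate libraries in each of the 12 groups. The reporters limit the comparison of models: a GFP gate follows present Elf5 reporter activity, whereas a YFP gate also keeps cells whose ancestors expressed the Cre. The labels give no strain, age or treatment, and do not say whether the 2 replicates came from separate animals, so the tests measure only the spread between these libraries, which may be technical.

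Caseins are the calcium-carrying proteins of milk. Csn1s1, Csn1s2a and Csn2 are calcium-sensitive and fill the interior of the casein micelle, and Csn3, kappa-casein, coats its surface and keeps it in suspension. Lalba, alpha-lactalbumin, joins the galactosyltransferase B4galt1 to form lactose synthase, Wap is the whey acidic protein of rodents, Trf (transferrin) and Ltf (lactoferrin) bind iron, and Glycam1 is a mucin-like glycoprotein found in milk and on specialised venules of lymph nodes. Full output of these proteins belongs to late pregnancy and lactation, when prolactin acts through its receptor Prlr and the transcription factors Stat5a and Stat5b, together with Elf5 and glucocorticoids. In the virgin gland, luminal cells are usually divided into an Elf5-positive secretory lineage and a hormone-sensing lineage with oestrogen and progesterone receptors.

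The 4 caseins lie on mouse chromosome 5 within 266.3 kb (GRCm38.p6, the RefSeq table's build): Csn1s1 at chr5:87666208-87682578, Csn2 at chr5:87692619-87699429, Csn1s2a at chr5:87774450-87788798 and Csn3 at chr5:87925579-87932550. Trf (chr9:103208876-103230286) and Ltf (chr9:111019292-111042766) share chromosome 9, Lalba (chr15:98480400-98482934) and Glycam1 (chr15:103562759-103565081) share chromosome 15, and Wap is at chr11:6635483-6638654. RefSeq promoter sequences were matched for 7 of the 9 genes, all but Csn3 and Trf. The 250 bases upstream of the start are printed for the 3 calcium-sensitive caseins, whose levels went together, and for Ltf and Glycam1, whose levels followed other patterns. Capitals mark TTCNNNGAA, the palindrome that STAT factors such as Stat5 recognise, which reads the same on both strands.
Csn1s1, chr5:87665958-87666207, plus strand: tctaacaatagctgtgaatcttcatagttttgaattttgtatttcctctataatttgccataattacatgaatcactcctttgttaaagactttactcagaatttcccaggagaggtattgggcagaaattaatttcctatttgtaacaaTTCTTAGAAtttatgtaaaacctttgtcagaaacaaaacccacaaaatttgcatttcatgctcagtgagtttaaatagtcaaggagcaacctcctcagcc
Csn2, chr5:87699426-87699675, minus strand: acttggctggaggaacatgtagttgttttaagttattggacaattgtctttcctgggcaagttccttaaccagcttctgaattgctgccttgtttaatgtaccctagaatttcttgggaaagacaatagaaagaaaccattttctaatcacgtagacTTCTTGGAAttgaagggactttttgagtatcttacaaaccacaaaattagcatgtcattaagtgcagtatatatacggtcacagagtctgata
Csn1s2a, chr5:87774200-87774449, plus strand: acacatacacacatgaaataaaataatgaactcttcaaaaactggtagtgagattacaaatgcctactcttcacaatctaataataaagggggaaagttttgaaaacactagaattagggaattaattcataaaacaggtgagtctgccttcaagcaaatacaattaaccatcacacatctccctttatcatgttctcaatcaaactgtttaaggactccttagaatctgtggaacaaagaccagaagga
Ltf, chr9:111019042-111019291, plus strand: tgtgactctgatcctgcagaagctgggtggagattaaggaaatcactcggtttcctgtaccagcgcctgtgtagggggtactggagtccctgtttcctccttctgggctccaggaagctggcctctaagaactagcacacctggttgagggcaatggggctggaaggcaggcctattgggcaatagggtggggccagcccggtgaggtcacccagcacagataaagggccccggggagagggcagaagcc
Glycam1, chr15:103565082-103565331, minus strand: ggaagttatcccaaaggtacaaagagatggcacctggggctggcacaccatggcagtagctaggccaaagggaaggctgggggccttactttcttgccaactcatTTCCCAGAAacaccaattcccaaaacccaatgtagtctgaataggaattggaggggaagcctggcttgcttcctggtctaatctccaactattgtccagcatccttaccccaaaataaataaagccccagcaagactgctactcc
The motif was present once each in the windows of Csn1s1 (TTCTTAGAA, first base at -100), Csn2 (TTCTTGGAA, at -93) and Glycam1 (TTCCCAGAA, at -145). It was not found in the upstream windows of Csn1s2a, Wap and Ltf, or in that of Lalba, whose entry takes a start inside the gene's span, although Csn1s2a held TTCTTAGAA 21 bases after its start. Of all 32851 mouse promoters in the table, 7.02% held the motif in the same 250 bases. A match describes these letters and not a bound site.

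Gene counts totalled 31.3e6 to 52.5e6 per library, and levels are given as CPM (counts scaled to 1e6 per library) after TMM scaling; 3 counts, the limit that a count of 0 allows, correspond to 0.057 to 0.096 CPM, for counting error only. Marker genes followed the labels: 8 basal markers, among them Krt5 and Acta2, summed to 5759 to 30430 CPM in basal libraries, and 9 luminal markers, among them Krt8, to 6847 to 18080 CPM in luminal libraries. Elf5 lay between 410 and 1657 CPM in GFP-positive and YFP-negative libraries and between 15 and 87.3 CPM in GFP-negative and YFP-positive ones, so these gates are called Elf5-high and Elf5-low below. In 2 libraries, keratinocyte markers stood out: GFP-negative duct replicate 2 (2452 CPM over 12 genes, with basal markers at 3316 CPM against 29.7 in replicate 1) and YFP-negative TEB replicate 2 (500 CPM), against 8.23 to 91.1 CPM elsewhere. Comparisons that use them were repeated without both, and the value is given where a call ended.

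**Figure D1:**
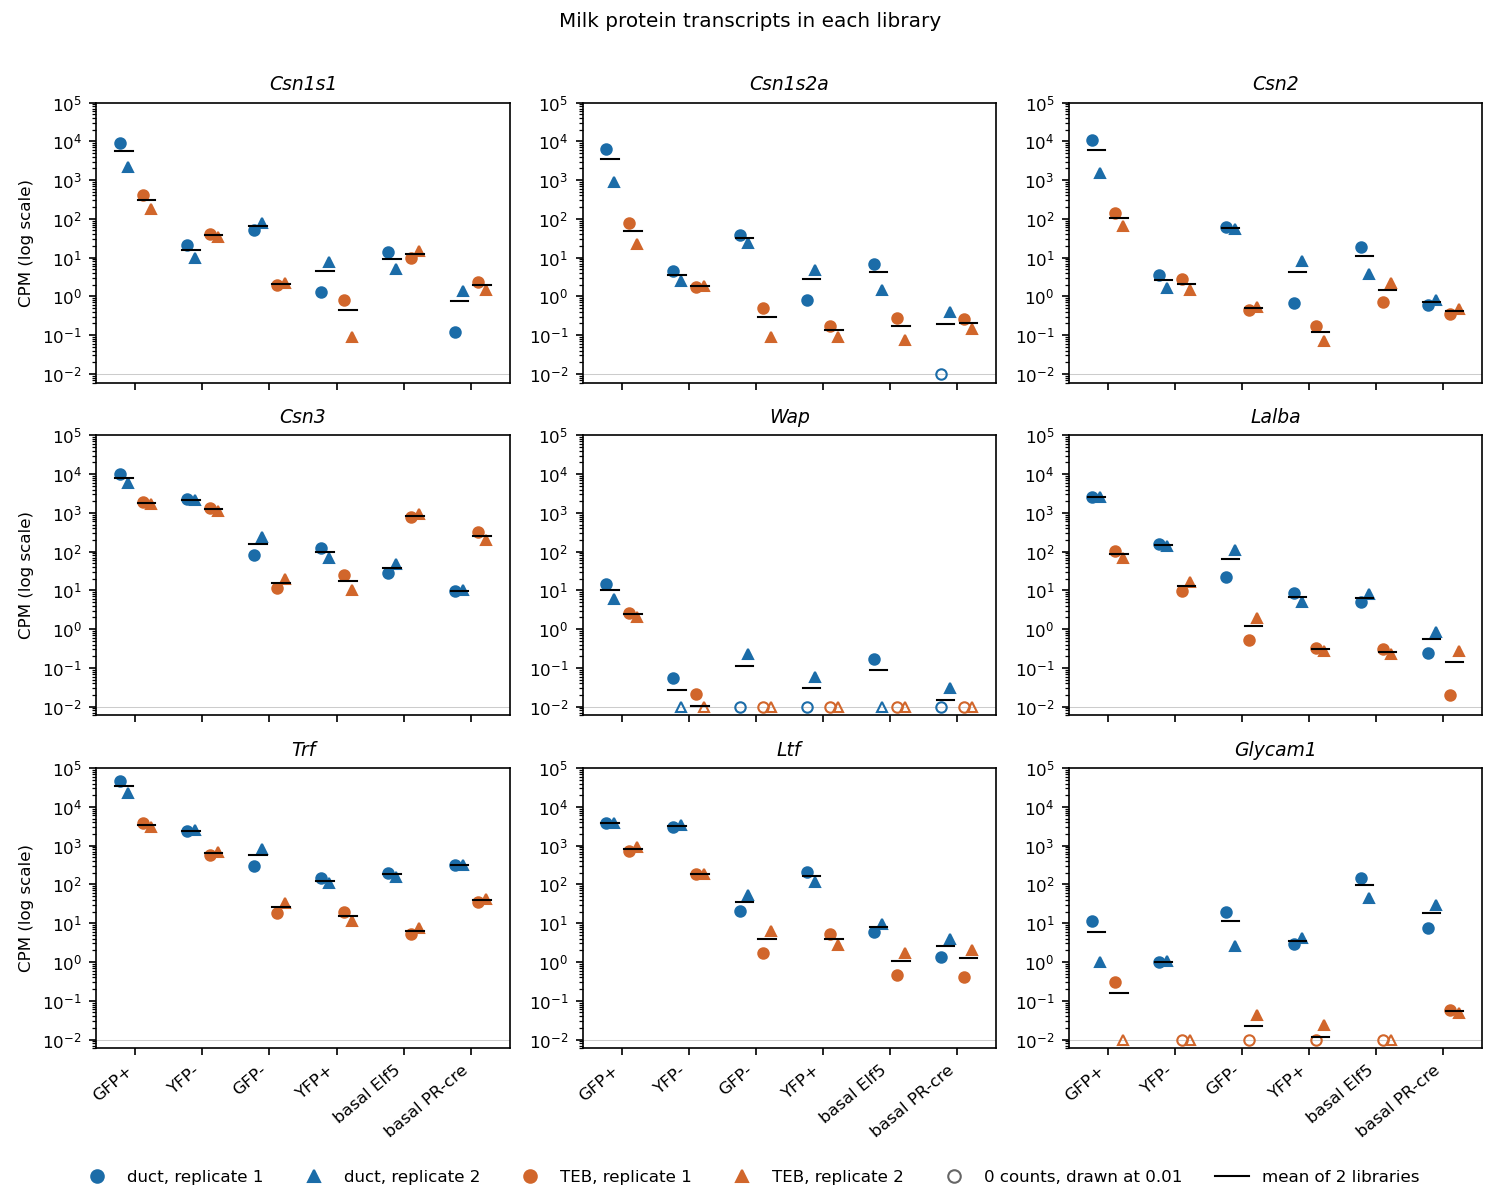
Levels of the 9 milk protein genes in the 24 libraries, as CPM on a log axis, for the 6 sorted gates in ducts (blue) and TEBs (orange). Circles are replicate 1, triangles replicate 2, bars the mean of 2, and open symbols at 0.01 mark 0 counts. All but Glycam1 have their highest mean in GFP-positive ducts, and Csn3 is the only 1 of the 9 with both TEB libraries above both duct libraries in each basal gate.

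Milk protein transcripts were concentrated in the Elf5-high luminal gates and above all in GFP-positive ducts. The 9 genes together took 7.46% and 3.59% of all counts in the 2 GFP-positive duct libraries, 0.790% and 0.818% in YFP-negative ducts, and 0.793% or less in every other library. In ducts, 7 of the 9 were higher in the Elf5-high than in the Elf5-low gates, where 24.6% of all 18109 tested genes were called higher (edgeR quasi-likelihood test, adjusted p under 0.05). The test averages both models, and within the PR-cre model the mean of Csn2, among the 7, went the other way. In TEBs, 7 of 9 were again higher, against 24.6% of all genes. Wap (edgeR adjusted p = 0.0793 in ducts and 0.0584 in TEBs) and Glycam1 (0.226 and 0.955) were not called. Over the 7 genes with counts in every group, all but Wap and Glycam1, the median log2 difference was 4.85 in ducts and 6.23 in TEBs, where the median of all genes was 0 and 0.06. In bulk libraries, fewer cells that carry a transcript and less transcript per cell cannot be told apart.

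TEBs held less of most of these transcripts than ducts. In the Elf5-high gates 7 of 9 were lower in TEBs, against 15.2% of all genes, and in the Elf5-low gates 8 of 9, against 11.6%. In basal cells 4 of 9 were lower, against 22.8%, and 1, Csn3, was higher, against 20.9%. Limma-voom called 4, 4 and 3 of the 9 in these comparisons, and edgeR called 3 in basal cells without basal PR-cre duct replicate 2. The median log2 change from duct to TEB over the 7 genes with counts in every group was -3.09 in Elf5-high, -4.25 in Elf5-low and -2.0 in basal gates, and that of all genes lay between -0.04 and 0.02. The test of the difference between the Elf5-high and Elf5-low changes called 0 of the 9 in edgeR, with 4 at an unadjusted p under 0.05, and 10.6% of all genes. Glycam1, at 0 counts in YFP-negative TEBs, gave 1.52 ± 23.46 in that fit and could not be called. DESeq2 called 3 of the 9 and limma-voom 0.

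**Figure D2:**
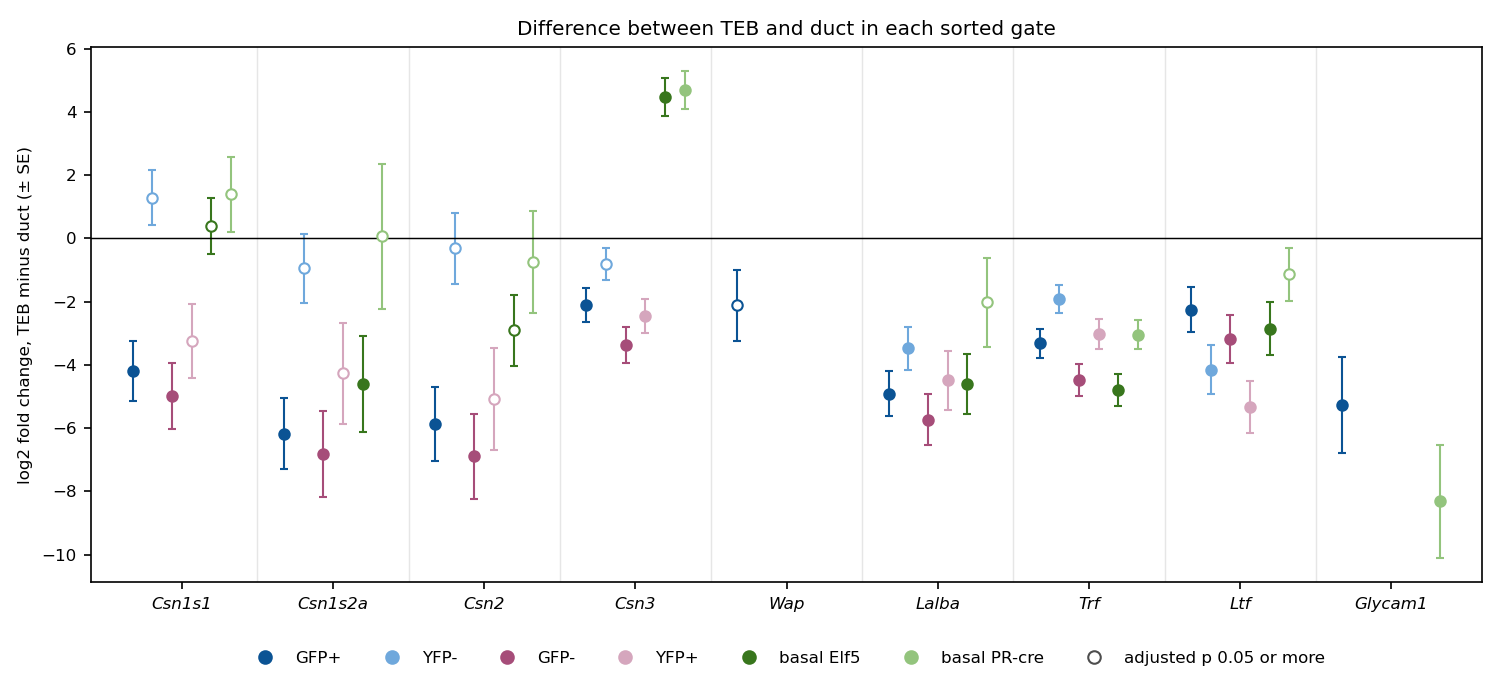
Difference between TEBs and ducts (log2 TEB minus duct) for each gene in the 6 gates, with bars of 1 standard error from the fit over 24 libraries. Filled points passed edgeR's adjusted p of 0.05 and open points did not; 45 of 54 pairs with over 3 counts in both groups are drawn. Of these, 39 lie below 0 and 6 above, and the 2 filled points above 0 are Csn3 in the basal gates.

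The calcium-sensitive caseins reached their highest levels in GFP-positive ducts and differed there between replicates. Csn1s1, alpha-S1-casein, stood at 8822 and 2127 CPM in the 2 GFP-positive duct libraries and at 418 and 182 CPM in GFP-positive TEBs. Csn1s2a, an alpha-S2-type casein, stood at 6218 and 898 CPM in the same ducts and at 76.9 and 21.8 CPM in the TEBs. Csn2, beta-casein, stood at 10520 and 1511 CPM in the ducts and at 142 and 64.5 CPM in the TEBs. For each of the 3, both duct libraries were far above both TEB libraries, and duct replicate 1 was well above replicate 2. The replicates differed 4.15-fold for Csn1s1, 6.92-fold for Csn1s2a and 6.96-fold for Csn2, a gap that 0.271%, 0.0331% and 0.0276% of tested genes exceeded in that pair. Glycam1 differed even more between the same libraries, 10.95-fold, which 0.0221% of tested genes exceeded, whereas Lalba and Ltf differed 1.03-fold and 1.01-fold.

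In GFP-positive cells the change from duct to TEB was -4.19 ± 0.95 (log2 ± SE) for Csn1s1 (edgeR adjusted p = 0.00686), -6.17 ± 1.12 for Csn1s2a (adjusted p = 0.00173) and -5.87 ± 1.16 for Csn2 (adjusted p = 0.00289). In that gate 8 of 9 genes were lower in TEBs, against 10.9% of all genes, and 4 to 7 of 9 were called without 1 of the 4 libraries. A fit on these 4 libraries alone ended the 3 calls (adjusted p = 0.162, 0.174 and 0.159), and so did leaving out GFP-positive TEB replicate 2 for Csn1s1 (-3.71, adjusted p = 0.0741).

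YFP-negative cells, the Elf5-high gate of the other model, carried little of these 3 transcripts. Csn1s1 stood there at 20.5 and 10.0 CPM in ducts and at 40.3 and 34.5 CPM in TEBs. Csn1s2a stood at 4.46 and 2.46 CPM in ducts and 1.72 and 1.87 CPM in TEBs, and Csn2 at 3.65 and 1.62 CPM in ducts and 2.77 and 1.48 CPM in TEBs. For Csn1s1 both TEB libraries were thus above both duct libraries, whereas for Csn2 the ranges overlapped. In this gate none of the 3 passed the edgeR test (log2 1.29 ± 0.87, -0.95 ± 1.09 and -0.31 ± 1.12, adjusted p = 0.345, 0.61 and 0.913), and 3 of the 9 genes, Lalba, Trf and Ltf, were lower in TEBs, against 7.97% of all genes.

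The gap between the 2 Elf5-high gates of ducts was therefore very wide for these caseins. Csn1s1 was higher in GFP-positive than in YFP-negative ducts by 8.48 ± 1.17 on the log2 scale (edgeR adjusted p = 0.000304), Csn1s2a by 10.00 ± 1.34 (adjusted p = 0.000244) and Csn2 by 11.14 ± 1.46 (adjusted p = 0.000203). In all, 7 of the 9 genes were higher in GFP-positive ducts, against 8.13% of all genes. With only these 4 libraries in the fit the 3 calls ended (adjusted p = 0.1, 0.119 and 0.112), and reporter and mouse model cannot be told apart here. In TEBs 5 of 9 were higher in GFP-positive cells, against 5.95% of all genes, and 1 to 3 without any 1 of the 4 libraries. They included Csn1s2a (4.78 ± 1.11, edgeR adjusted p = 0.0152) and Csn2 (5.59 ± 1.18, adjusted p = 0.00916), while Csn1s1 did not pass (3.0 ± 0.91, adjusted p = 0.0508). Both TEB calls ended without the 2 libraries that held keratinocyte transcripts (adjusted p = 0.0927 and 0.0826). The test of whether the TEB change itself differed between the 2 gates was added after these values were seen. It gave log2 differences of -5.48 ± 1.27 for Csn1s1, -5.22 ± 1.47 for Csn1s2a and -5.56 ± 1.53 for Csn2. None passed in edgeR (adjusted p = 0.0631, 0.132 and 0.124), where 0 of the 9 genes and 1.13% of all genes were called; 4 of the 9 had an unadjusted p under 0.05, and DESeq2 and limma-voom called 2 each.

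In the Elf5-low gates of ducts, both libraries of the Elf5 model lay above both of the PR-cre model for each of these 3 caseins, a difference that was not tested. In GFP-negative cells 8 of the 9 genes were lower in TEBs than in ducts, against 9.65% of all genes, and in YFP-positive cells 4, Csn3, Lalba, Trf and Ltf, against 3.25%. The first count was 5 without either GFP-negative TEB library and 2 in a fit on these 4 libraries alone, and the second was 2 without YFP-positive duct replicate 1 or TEB replicate 2. In GFP-negative ducts Csn1s1 stood at 52.8 and 79.1 CPM, Csn1s2a at 38.9 and 23.8 CPM and Csn2 at 62.9 and 55.3 CPM, above every YFP-negative duct library. In YFP-positive ducts the 2 libraries parted: Csn1s1 stood at 1.29 and 7.62 CPM, Csn1s2a at 0.797 and 4.65 CPM and Csn2 at 0.672 and 8.04 CPM. Replicate 2 was thus the higher for all 3, although it was the lower for Csn3, Lalba, Trf and Ltf. In TEBs the GFP-negative libraries held 0.0875 to 2.19 CPM and the YFP-positive libraries 0.0692 to 0.814 CPM of each. Averaged over both models, the Elf5-high gates exceeded the Elf5-low gates in ducts by 4.09 ± 0.69 for Csn1s1 (edgeR adjusted p = 0.000221), 3.60 ± 0.75 for Csn1s2a (adjusted p = 0.00122) and 2.99 ± 0.76 for Csn2 (adjusted p = 0.00511). Limma-voom gave adjusted p = 0.0524 for Csn1s2a and 0.0902 for Csn2. Within the PR-cre model the duct ranges of Csn1s2a and Csn2 overlapped between YFP-negative and YFP-positive cells. The mean of Csn2 was there higher in YFP-positive ducts (4.355 against 2.631 CPM), opposite to the difference averaged over both models, through replicate 2.

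Csn3 was spread more widely over the gates than the other caseins. It stood at 9752 and 5947 CPM in GFP-positive ducts and 1937 and 1722 CPM in GFP-positive TEBs. In YFP-negative cells it stood at 2289 and 2129 CPM in ducts and 1369 and 1149 CPM in TEBs. The 4 Elf5-high groups did not overlap with one another and all lay above every other group. In Elf5-low ducts it stood at 82.2 and 239 CPM (GFP-negative) and 126 and 68.4 CPM (YFP-positive), and in Elf5-low TEBs at 9.96 to 25.2 CPM. The Elf5-high gates were higher by 5.06 ± 0.43 (log2 ± SE) in ducts (edgeR adjusted p = 2.84e-07) and by 6.52 ± 0.46 in TEBs (adjusted p = 4.87e-08). From duct to TEB it changed by -1.46 ± 0.37 in Elf5-high cells (adjusted p = 0.00781) and by -2.92 ± 0.39 in Elf5-low cells (adjusted p = 0.000172). GFP-positive ducts exceeded YFP-negative ducts by 1.83 ± 0.53 (adjusted p = 0.0339), a call that ended without GFP-positive duct replicate 1 (1.39, adjusted p = 0.205), YFP-negative duct replicate 1 (1.88, adjusted p = 0.137) or YFP-negative duct replicate 2 (1.78, adjusted p = 0.177).

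In basal cells Csn3 moved the other way. Its level was 27.6 and 49.1 CPM in basal ducts of the Elf5 model and 787 and 915 CPM in the basal TEBs. In the PR-cre model it was 9.39 and 10.4 CPM in ducts and 314 and 195 CPM in TEBs. Every basal TEB library was above every basal duct library. The rise was 4.58 ± 0.42 on the log2 scale over both models (edgeR adjusted p = 1.26e-06), 4.47 ± 0.59 in the Elf5 model (adjusted p = 6.01e-05) and 4.68 ± 0.60 in the PR-cre model (adjusted p = 8.86e-05). In the Elf5 model 1 of 9 genes was higher in basal TEBs, against 17.2% of all genes, and 5 lower, against 19.2%; in the PR-cre model these were 1, against 12%, and 2, against 12.7%. Over the alternatives the rise over both models stayed between 4.38 and 4.85, and its adjusted p at 3.34e-05 or less. In ducts Csn3 was lower in basal than in luminal cells (-5.21 ± 0.42, adjusted p = 7.68e-08), as were 7 of the 9, against 29.8% of all genes. In TEBs it was higher in basal cells than the log2 mean of the 4 luminal gates (1.55 ± 0.30, edgeR adjusted p = 0.000496). It was the 1 of 9 called higher, against 30.8%, whereas Lalba, Trf and Ltf were lower, 3 of 9 against 28%. That luminal mean includes the Elf5-low TEBs, at 9.96 to 25.2 CPM. Both Elf5-high TEB gates, at 1149 to 1937 CPM, held more Csn3 than basal TEBs. Wap and Glycam1 had TEB groups at 0 counts (standard errors 7466 and 4793) and could not be called there. The basal change from duct to TEB exceeded the luminal one by 6.76 ± 0.51 (adjusted p = 4.87e-07).

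Luminal transcripts were divided between basal ducts and TEBs. The 9 luminal markers summed to 796 to 969 CPM in basal ducts and 401 to 631 CPM in basal TEBs, and Elf5 fell there by 0.77 ± 0.23 on the log2 scale (edgeR adjusted p = 0.0142). Epcam, 1 of the 9, stood at 236 and 249 CPM in basal ducts of the Elf5 model and at 317 and 334 CPM in the TEBs. In the PR-cre model its ranges overlapped (186 and 226 against 193 and 210 CPM). Krt18, also among the 9, stood at 105 and 131 CPM in basal ducts and 9.46 and 15.2 CPM in basal TEBs of the Elf5 model. In the PR-cre model Krt18 stood at 98.6 and 137 against 12.8 and 20.4 CPM, and Krt8 was lower in basal TEBs of both models. Of 9 identity genes of the Elf5-positive lineage 3 were called higher and 2 lower in basal TEBs, and of 10 of the hormone-sensing lineage 2 higher and 1 lower, against 20.9% and 22.8% of all genes. Csn3 in basal TEBs of the Elf5 model reached 40.6% and 53.1% of its level in the GFP-positive TEB library of the same number, while Csn1s1 reached 2.40% and 8.24%, Lalba 0.284% and 0.330%, Trf 0.138% and 0.254%, and Elf5 2.22% and 2.77%. In the PR-cre model Csn3 reached 22.9% and 17% of its level in YFP-negative TEBs. Csn2 reached 12.8% and 32.9% there, and Csn1s2a 14.9% and 7.8%. These shares rest on 18 and 20 basal counts for Csn2, and on 13 and 6 for Csn1s2a. Trf was below Csn3 at 6.01% and 6.16%, as was Csn1s1 at 5.97% and 4.30%. Lalba reached 0.2039% and 1.601%, and Ltf 0.2269% and 1.102%. Elf5 stood at 0.250% and 0.297% there. Basal markers also summed to less in basal TEBs (5759 to 12380 CPM) than in basal ducts (27990 to 30430 CPM), and the part of this shift, or of luminal RNA, in the result was not tested.

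Csn1s1 did not follow Csn3 to the same extent. In basal cells of the Elf5 model it stood at 13.9 and 5.07 CPM in ducts and 10.0 and 15 CPM in TEBs, and in the PR-cre model at 0.124 and 1.35 CPM in ducts and 2.40 and 1.48 CPM in TEBs. The basal change did not pass (0.89 ± 0.73, edgeR adjusted p = 0.359), but it exceeded the luminal change by 3.68 ± 0.88 (adjusted p = 0.00706). In that test of basal against luminal changes 2 of the 9 genes, Csn1s1 and Csn3, were called higher, against 11.4% of all genes. Wap and Glycam1 had groups at 0 counts, and the edgeR fit gave them standard errors of 1980 and 17886. These genes could therefore not be called in it, whatever their change. Limma-voom gave 4.03 with adjusted p = 0.17 for Csn1s1. Csn1s2a and Csn2 stayed at or below 2.25 CPM in every basal TEB library, and reached 7.0 and 18.3 CPM in basal duct replicate 1 of the Elf5 model.

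These differences changed the make-up of the casein transcripts, compared per kilobase of gene model so that genes of unequal length can be set side by side. In GFP-positive ducts Csn2 was the most abundant casein of replicate 1 (33.0% of casein CPM per kb, with Csn1s2a at 23.7%, Csn1s1 at 21.9% and Csn3 at 21.4%), and Csn3 that of replicate 2 (49.3%). In GFP-positive TEBs Csn3 made up 70.6% and 83.7%. In YFP-negative cells it made up 98.5% and 99.2% in ducts and 96.3% in both TEB libraries, and in basal TEBs 97.8% to 98.9%. The summed casein level was 28490 and 7551 CPM per kb in GFP-positive ducts and 1456 and 1344 in YFP-negative ducts. Thus YFP-negative ducts carried casein transcripts that were almost entirely kappa-casein. Csn3 also made up most of the casein in the other groups of the PR-cre model. Its share was 97.07% and 70.85% in YFP-positive ducts, 94.48% and 96.49% in YFP-positive TEBs, and 90.58% and 75.63% in basal ducts. The 3 libraries of ducts from the Elf5 model numbered 1 had a lower Csn3 share (21.4%, 27.5% and 33.8% in GFP-positive, GFP-negative and basal cells) than those numbered 2 (49.3%, 53.4% and 78.3%).

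**Figure D3:**
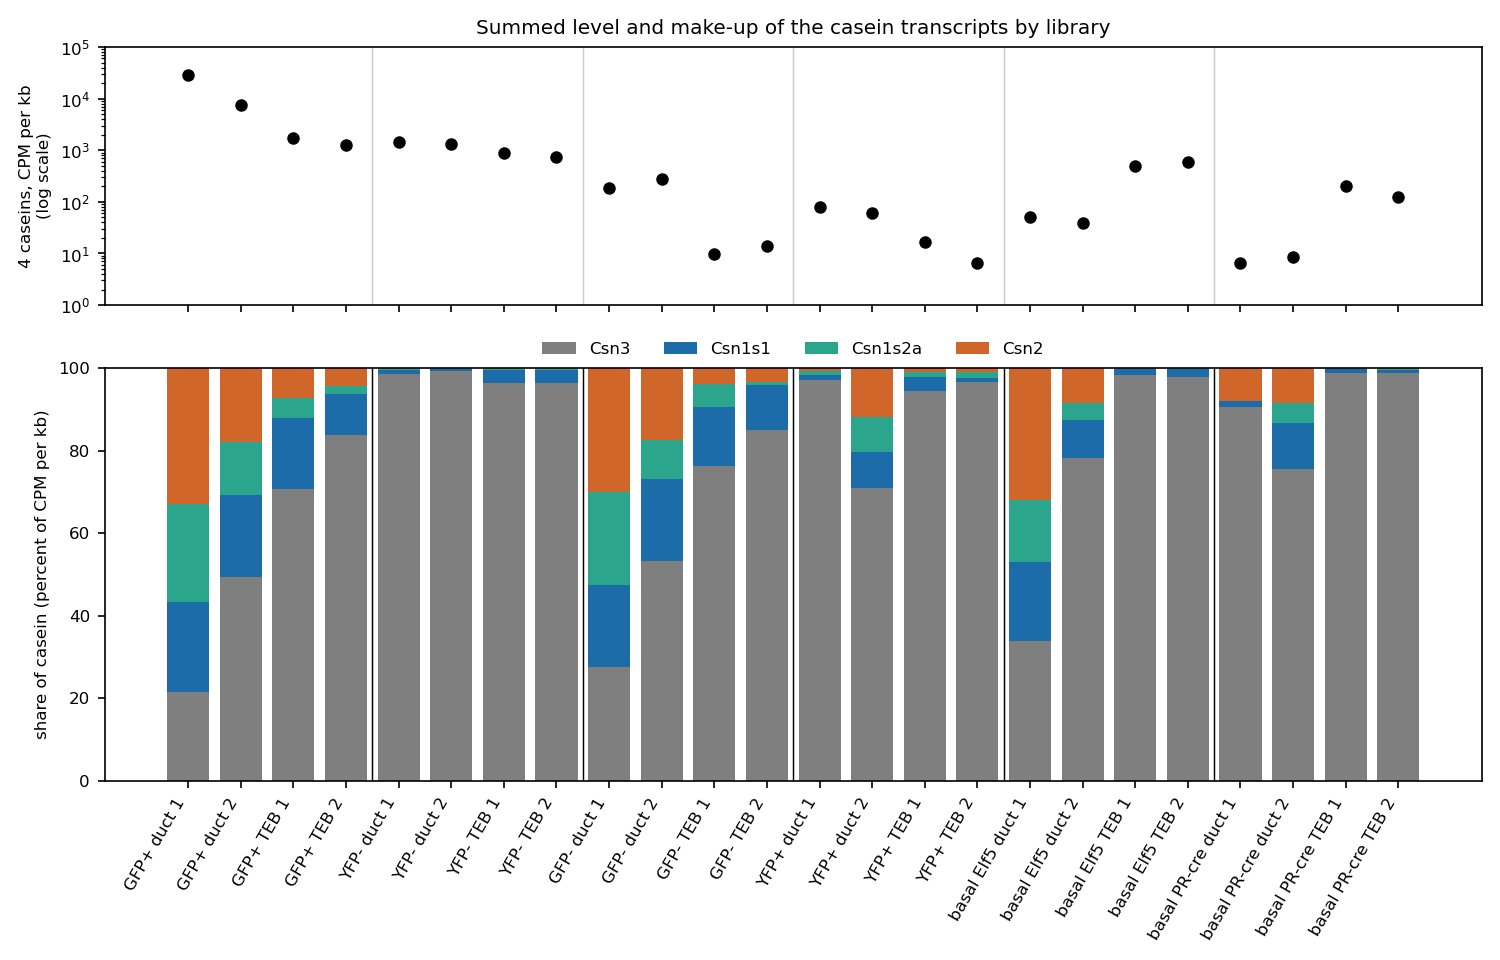
Summed casein level as CPM per kb of gene model on a log axis (top) and the share of each casein in it, in percent (bottom), for the 24 libraries. Csn3 fills 96.3% or more of YFP-negative libraries, 70.85% or more of YFP-positive libraries and 97.8% or more of basal TEB libraries. It fills 21.4% and 49.3% of GFP-positive duct libraries.

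Lalba, the lactose synthase subunit, was graded across the 4 Elf5-high groups. It stood at 2634 and 2551 CPM in GFP-positive ducts, 155 and 139 CPM in YFP-negative ducts, 105 and 67.4 CPM in GFP-positive TEBs and 9.67 and 16.7 CPM in YFP-negative TEBs. None of these 4 groups overlapped. GFP-negative ducts held 22.0 and 110 CPM, a range that overlapped GFP-positive TEBs, and YFP-positive ducts 8.66 and 5.10 CPM. Basal ducts held 0.247 to 7.87 CPM and the TEBs of Elf5-low and basal gates 0.0197 to 1.90 CPM. From duct to TEB the log2 change of Lalba was -4.19 ± 0.50 in Elf5-high cells (edgeR adjusted p = 2.97e-05), -5.11 ± 0.60 in Elf5-low cells (adjusted p = 6.11e-05) and -3.31 ± 0.86 in basal cells (adjusted p = 0.00652). The basal call ended without basal PR-cre duct replicate 2 (-2.70, adjusted p = 0.12). Elf5-high exceeded Elf5-low gates by 4.85 ± 0.51 in ducts (adjusted p = 2.91e-06) and 5.77 ± 0.60 in TEBs (adjusted p = 2.70e-06), and GFP-positive exceeded YFP-negative ducts by 4.14 ± 0.70 (adjusted p = 0.00128). Its partner B4galt1 followed Lalba in some comparisons and not in others. It was higher in GFP-positive than in YFP-negative ducts (1.02 ± 0.12, adjusted p = 3.36e-05) and TEBs (0.52 ± 0.12, adjusted p = 0.0119), and lower in TEBs than in ducts in GFP-positive (-0.43 ± 0.12, adjusted p = 0.0177) and Elf5-low cells (-0.50 ± 0.09, adjusted p = 0.000616). It was, however, lower in Elf5-high than in Elf5-low ducts (-0.52 ± 0.09, adjusted p = 9.37e-05) and higher in basal TEBs than in basal ducts (0.72 ± 0.09, adjusted p = 5.32e-06).

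Wap was nearly silent outside the GFP-positive gate. It stood at 14.8 and 5.99 CPM in GFP-positive ducts and at 2.68 and 2.12 CPM in GFP-positive TEBs, and at 0.224 CPM or less in all 20 other libraries, 14 of them at 0 counts. Per kilobase it reached 26.4 and 10.7 CPM in GFP-positive ducts, where Csn2 reached 9393 and 1349. Pooled over replicates, GFP-positive ducts had 856 counts and TEBs 243, a CPM ratio of 4.65 (95% counting interval 4.03 to 5.38). GFP-negative ducts had 8 counts and YFP-negative ducts 2, so the GFP-positive level was 99.8 (50.4 to 232) and 380 (105 to 3142) times higher. The edgeR test called it higher in GFP-positive than in YFP-negative ducts (adjusted p = 0.00442), but DESeq2 did not (adjusted p = 0.107), nor did edgeR without YFP-negative duct replicate 2 (adjusted p = 0.0561). From duct to TEB no gate passed for Wap. In GFP-positive cells the fitted change was -2.12 ± 1.13 on the log2 scale (edgeR adjusted p = 0.218).

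Trf was the most abundant of the 9 per kilobase in GFP-positive ducts (19400 and 10040 CPM per kb). It stood there at 45240 and 23400 CPM, against 3898 and 2978 CPM in GFP-positive TEBs. In YFP-negative cells it stood at 2378 and 2490 CPM in ducts and 591 and 703 CPM in TEBs. These 4 groups did not overlap, and GFP-positive TEBs were above YFP-negative ducts. Basal ducts held 201 and 160 CPM in the Elf5 model and 322 and 325 CPM in the PR-cre model, more than YFP-positive ducts (145 and 106 CPM). Basal TEBs held 5.36 to 43.3 CPM. Elf5-high exceeded Elf5-low gates by 5.10 ± 0.36 on the log2 scale in ducts (edgeR adjusted p = 3.70e-08) and 6.23 ± 0.38 in TEBs (adjusted p = 1.02e-08). The change from duct to TEB was -2.62 ± 0.32 in Elf5-high (adjusted p = 3.58e-05), -3.75 ± 0.34 in Elf5-low (adjusted p = 7.33e-06) and -3.92 ± 0.35 in basal cells (adjusted p = 7.16e-07). In YFP-negative cells alone it was -1.91 ± 0.45 (adjusted p = 0.00898), and this call ended without YFP-negative TEB replicate 1 (adjusted p = 0.0739). The transferrin receptor Tfrc was 0.92 ± 0.13 higher in Elf5-high than in Elf5-low ducts (adjusted p = 1.45e-05), and 0.39 ± 0.13 higher in Elf5-high TEBs than ducts (adjusted p = 0.0272).

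Ltf was the member on which the 2 Elf5-high duct gates were closest. It stood at 3832 and 3870 CPM in GFP-positive ducts and 3073 and 3495 CPM in YFP-negative ducts. The groups did not overlap, but the edgeR test did not separate them (0.23 ± 0.67, adjusted p = 0.9). In TEBs it stood at 709 and 903 CPM in GFP-positive and 182 and 187 CPM in YFP-negative cells. YFP-positive ducts held 205 and 119 CPM, as much as YFP-negative TEBs, and GFP-negative ducts 20.4 and 52.2 CPM. Basal libraries held 0.414 to 9.63 CPM. Elf5-high exceeded Elf5-low gates by 5.54 ± 0.58 on the log2 scale in ducts (adjusted p = 2.64e-06) and 6.58 ± 0.62 in TEBs (adjusted p = 9.74e-07). From duct to TEB the change was -3.20 ± 0.52 in Elf5-high (adjusted p = 0.000364) and -4.25 ± 0.56 in Elf5-low cells (adjusted p = 0.000157), and -4.15 ± 0.77 in YFP-negative cells alone (adjusted p = 0.00234). In GFP-positive cells alone the change of -2.26 ± 0.71 (adjusted p = 0.0351) lost its call without any 1 of the 4 libraries (adjusted p = 0.0847 to 0.194). In basal cells the change of -2.0 ± 0.59 (adjusted p = 0.0146) lost its call without basal PR-cre duct replicate 2 (-1.45, adjusted p = 0.11), basal Elf5-model TEB replicate 1 (adjusted p = 0.0587) or basal PR-cre TEB replicate 1 (adjusted p = 0.0562). Ltf is also a neutrophil granule protein. The 9 neutrophil markers had their highest sums, 2.31 and 2.82 CPM, in GFP-positive ducts, where Ltf was highest too, and summed to 1.1 CPM or less in the other 22 libraries. In YFP-negative ducts, with Ltf at 3073 and 3495 CPM, they summed to 0.648 and 0.582 CPM. S100a8 made up most of the sums in GFP-positive ducts (2.07 and 2.38 CPM), and S100a9 and Retnlg were at 0 in all 24 libraries. The part of neutrophils in the Ltf level was not tested.

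Glycam1 was the exception among the 9, with its highest levels in basal ducts. It stood at 145 and 45.8 CPM in basal ducts of the Elf5 model and 7.50 and 29.0 CPM in those of the PR-cre model. Luminal duct libraries held 0.972 to 19.8 CPM and every TEB library 0.309 CPM or less. Basal ducts exceeded luminal ducts by 3.41 ± 0.67 on the log2 scale (edgeR adjusted p = 0.000802), the 1 member called higher there, against 33.5% of all genes. In TEBs it all but vanished: basal cells of the Elf5 model had 7401 counts in ducts and 0 in TEBs, so ducts were at least 2697-fold higher over a floor of 3 counts for the group. In basal cells of the PR-cre model the ratio of ducts to TEBs was 338 (95% counting interval 145 to 1044), and in GFP-positive cells 43.8 (26.7 to 77.2). The last ratio rests mostly on replicate 1, which had 499 counts in ducts and 16 in TEBs, against 32 and 0 in replicate 2. Its fitted change (-5.26, edgeR adjusted p = 0.0282) ranged from -10.9 to -2.65 and kept its call in 6 of 11 alternatives. Markers of some other cells moved with it, and others did not. Leukocyte markers, 8 genes, summed to 34.9 and 22.2 CPM in basal ducts and 7.31 and 8.73 CPM in basal TEBs of the Elf5 model, and to 16.3 and 16.5 against 4.38 and 6.80 CPM in the PR-cre model. In the Elf5 model, 4 high endothelial venule markers summed to 12.5 and 3.77 CPM in basal ducts and 1.42 and 2.05 CPM in basal TEBs, and 6 endothelial markers to 87.6 and 34.9 against 14.9 and 17.1 CPM. In the PR-cre model the venule markers summed to 1.30 and 1.29 CPM in basal ducts and 2.46 and 3.55 CPM in TEBs, with Chst4 and Madcam1 at 0 in the TEBs, and the endothelial markers to 6.73 and 13.1 against 7.88 and 9.18 CPM. Adipocyte markers summed to 12 to 43.7 CPM in basal ducts and 3.24 to 7.89 CPM in basal TEBs. Among them, Adipoq was at 0 in every basal duct library and at 0.0499 and 0.173 CPM in basal TEBs of the Elf5 model. Fibroblast markers, 6 genes, summed to 863 and 465 CPM in basal ducts and 676 and 367 CPM in basal TEBs of the Elf5 model. In the PR-cre model these sums were 318 and 495 against 388.5 and 1233 CPM. The part of these cells in the Glycam1 result was not tested.

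**Figure D4:**
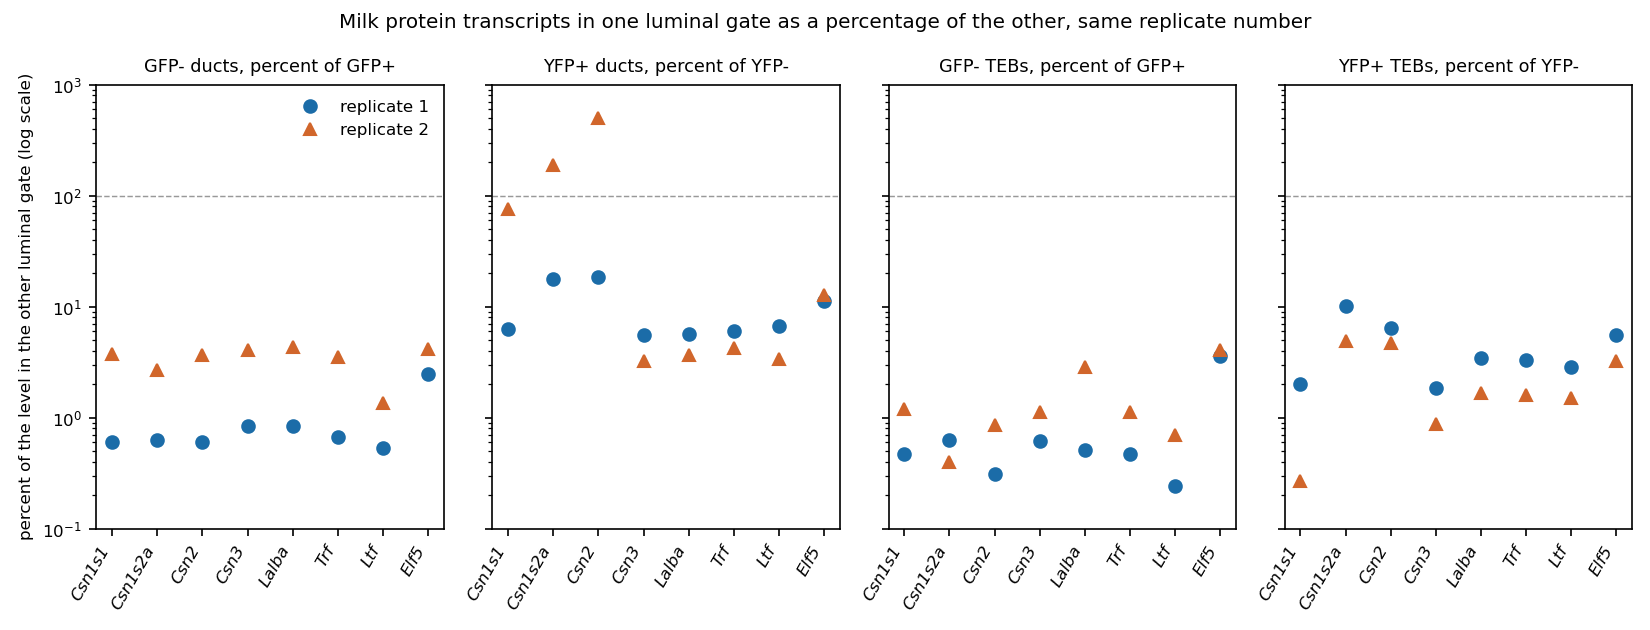
Level of 7 milk protein genes and Elf5 in the Elf5-low luminal gates as percent of the Elf5-high gate of the same model, structure and replicate number, on a log axis with a dashed line at 100. In GFP-negative duct replicate 1 the 7 genes lie between 0.532% and 0.842%, below Elf5 at 2.46%, and in YFP-positive duct replicate 2 they spread from 3.21% to 497%.

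The GFP-negative gate held a small share of the GFP-positive level, and the YFP-positive gate a more variable share of the YFP-negative level. In GFP-negative duct replicate 1 the 7 genes with counts in every group reached 0.532% to 0.842% of their level in GFP-positive duct replicate 1, and in replicate 2 they reached 1.35% to 4.32%. In TEBs they reached 0.242% to 0.633% in replicate 1 and 0.401% to 2.82% in replicate 2. Elf5 itself reached 2.46% and 4.12% in ducts and 3.55% and 4.03% in TEBs. In YFP-positive duct replicate 1 the 7 genes reached 5.50% to 18.4% of YFP-negative cells, with Elf5 at 11.3%, and in TEBs 1.84% to 10.2% in replicate 1 and 0.268% to 4.93% in replicate 2. Whether cells or free RNA from the Elf5-high gate add to these levels was not tested.

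Over the 12 group means, on the scale log2(CPM + 0.5), Csn1s2a and Csn2 were closest to each other (Pearson r = 0.989), while Csn2 and Csn3 had r = 0.61, Lalba and Ltf 0.918, and Csn3 and Glycam1 -0.286. These are descriptions over 12 groups that share cell type and library depth. Among 13832 expressed genes, those most like Csn1s2a and Csn2 besides each other were Spp1 (0.974 and 0.979), the secreted phosphoprotein osteopontin, and Sectm1a (0.972 and 0.968). The most alike genes were Cyp24a1 (0.956), Lbp and Esm1 for Csn1s1, and Enpp3 (0.966), Timd2 and Slc27a1 for Csn3. They were Lao1 (0.959), Esm1 and Cyp24a1 for Wap, and Tnfaip3 (0.976), Btn1a1 and Pigr for Lalba. For Trf they were Il23a (0.970), Acadm and A330023F24Rik, for Ltf Clic6 (0.992), Fcgbp and Foxi1, and for Glycam1 Ankrd12 (0.940), Pgrmc1 and Ddx5. Btn1a1, a milk fat globule protein, and Pigr, which carries immunoglobulin A into milk, are themselves products of the secretory cell.

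Other proteins secreted into milk followed the 9 in part. Of 19 tested, 13 were higher and 1 lower in Elf5-high than in Elf5-low ducts, with a median of 4.01 on the log2 scale, against 24.6% higher and 23.3% lower of all genes. Lcn2, lipocalin 2, was higher by 5.03 ± 0.38 (edgeR adjusted p = 8.24e-08) and Muc15 by 4.95 ± 0.45 (adjusted p = 6.10e-07). From duct to TEB 7 fell and 1 rose in Elf5-high cells, against 15.2% and 17.4% of all genes: Cp, ceruloplasmin, fell by 2.39 ± 0.25 (adjusted p = 7.82e-06) and Pigr by 2.33 ± 0.41 (adjusted p = 0.000583), and Pthlh, parathyroid hormone-like hormone, rose by 2.84 ± 0.41 (adjusted p = 6.71e-05). In basal cells 8 fell and 0 rose, against 22.8% and 20.9%, led by the protease inhibitor Slpi (-6.85 ± 0.54, adjusted p = 3.58e-07). Between GFP-positive and YFP-negative ducts 7 were higher and 0 lower, against 8.13% and 5.83%, among them Spp1 (11.01 ± 1.32, adjusted p = 9.87e-05). The counts of 0 come from the edgeR test. Neighbours of the caseins on chromosome 5 were barely expressed, and 4 of 11 passed the filter on low counts. All 4 were called higher in Elf5-high ducts, and 2 of the 4 in Elf5-high TEBs. Genes this low pass the filter only through the gates where they are high, so these counts do not test a shared pattern. Csn1s2b, the remaining casein of the cluster, was at 0 counts in all basal and GFP-negative libraries and at 0.203 to 1.88 CPM elsewhere.

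Regulators of milk protein genes were divided. Of 20, 9 were higher and 8 lower in Elf5-high than in Elf5-low ducts, with a median of 0, against 24.6% and 23.3% of all genes. Elf5 was higher by 3.99 ± 0.23 on the log2 scale (edgeR adjusted p = 1.68e-09), whereas Prlr, the prolactin receptor, was lower (-3.56 ± 0.38, adjusted p = 2.99e-06), the progesterone receptor Pgr was lower (-4.02 ± 0.33, adjusted p = 1.69e-07) and Stat5a was lower (-0.81 ± 0.24, adjusted p = 0.0116). Elf5 and Pgr are among the 20, but their reporters set the gates, so their direction follows from the sort. Prlr stood at 280 to 927 CPM in Elf5-high libraries, 2528 to 6618 CPM in Elf5-low libraries and 1.80 to 11.8 CPM in basal libraries, so the receptor and all the milk protein transcripts but Glycam1, which was highest in basal ducts, peaked in different luminal gates. In basal cells 11 of the 20 fell from duct to TEB and 1 rose, against 22.8% and 20.9% of all genes. These included Socs3 (-3.19 ± 0.15, adjusted p = 3.33e-10) and Cish (-2.08 ± 0.13, adjusted p = 4.82e-09), feedback inhibitors that STAT signalling induces, and Stat5a (-0.96 ± 0.24, adjusted p = 0.00446). In Elf5-high cells 5 fell and 1 rose, against 15.2% and 17.4%, and Elf5 fell by 0.89 ± 0.20 (adjusted p = 0.00315).

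Genes of lactose synthesis and casein secretion were counted in the same comparisons. Of 21, 6 were higher and 8 lower in Elf5-high than in Elf5-low ducts (median -0.02), where 24.6% and 23.3% of all genes were, so the share called higher was near that of all genes. In Elf5-high cells 2 rose and 6 fell from duct to TEB, against 17.4% and 15.2%. Between GFP-positive and YFP-negative ducts 10 were higher and 1 lower, against 8.13% and 5.83%. Atp2c2, a Golgi calcium pump, was higher by 4.68 ± 0.42 (edgeR adjusted p = 4.68e-06) and Fam20c, the kinase that phosphorylates caseins, by 1.79 ± 0.22 (adjusted p = 3.94e-05). Fam20c stood at 24.9 and 14.6 CPM in GFP-positive ducts and 26.6 and 28.8 CPM in GFP-positive TEBs, and from duct to TEB it rose by 0.73 ± 0.15 in Elf5-high cells (adjusted p = 0.00136). By gate, this change passed in YFP-negative cells (0.98 ± 0.22, adjusted p = 0.005) and not in GFP-positive cells (0.49 ± 0.21, adjusted p = 0.117). Fam20c fell in Elf5-low (-2.46 ± 0.18, adjusted p = 3.60e-07) and basal cells (-1.90 ± 0.16, adjusted p = 8.20e-08). Of 12 iron-handling genes 6 were higher and 2 lower in Elf5-high ducts (24.6% and 23.3% of all genes), among them Cp (4.01 ± 0.27, adjusted p = 1.62e-08) and Steap3 (3.14 ± 0.32, adjusted p = 4.24e-07), and 4 rose and 4 fell from duct to TEB there (17.4% and 15.2%). Lists of luminal identity genes gave 8 of 9 higher in Elf5-high ducts for the Elf5-positive lineage, with Kit at 4.96 ± 0.57 (adjusted p = 6.14e-06). For the hormone-sensing lineage 10 of 10 were lower, with Areg at -5.03 ± 0.51 (adjusted p = 1.96e-06). All genes were at 24.6% and 23.3%. Elf5 and Pgr, whose reporters set the gates, are on these lists, so their direction follows from the sort. Prom1 is on both lists and was the 1 lower gene of the first.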

How the data were processed

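Bulk RNA was measured in 24 libraries, 2 in each of 12 groups (sorted gate by structure). Per the labels' protocols, RNA was purified with miRNeasy and DNase, and the library kit was TruSeq RNA version 2, which does not mark strand. Per the submitters' processing notes, the deposited counts are whole reads per gene from featureCounts on mm10; the aligner and the handling of multi-mapping reads were not given in the sources used here. The deposited count table and the single-library files differed in 0 values. Gene symbols came from RefSeq (25275 of 27179 identifiers matched).

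Counts were filtered with filterByExpr over the 12 groups (minimum count 10, minimum total 15), which left 18109 genes and all 9 milk protein genes, scaled by TMM and fitted with edgeR 4.0.16 (R 4.3.3; robust quasi-likelihood F-test, 12 residual degrees of freedom, 1 mean per group). Contrasts average groups on the log2 scale, p-values were adjusted over all tested genes (Benjamini-Hochberg) and called under 0.05, and the standard error is the log2 change divided by the square root of F. On simulated counts for the duct and TEB comparison of basal cells, run on 18109 genes, the fit recovered 89% of genes changed by 2 on the log2 scale and 61% of those changed by 1. The changed genes were drawn only among well-counted genes, with the fitted spread and otherwise a common mean for all groups. These shares therefore do not cover genes near 0 counts, such as Wap. CPM uses TMM-scaled totals, and CPM per kb divides by the gene model's length. Ratios of low counts carry exact 95% binomial counting intervals, which leave out the spread between libraries.

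Alternatives were RLE and upper-quartile scaling, no filter, DESeq2 1.42.0, limma-voom (limma 3.58.1), a replicate block, fits on only the groups compared, and leaving out libraries. Replicate libraries differed beyond counting noise (chi-square per degree of freedom 15.5 to 149). The milk protein genes and all gene lists were chosen with earlier results of these data known. From each list at most 3 genes per comparison are named, the called ones with the largest change that kept its sign in every pair of groups averaged, besides Csn1s2b, Elf5, Prlr, Stat5a, B4galt1, Fam20c and Tfrc; the 3 most alike genes of each milk protein gene had a mean of at least 1 CPM and the highest correlation. Genes whose called fold rests on a group at 0 counts are passed over in the text.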

Additional observations from a re-analysis of the deposited data

Results flagged for a closer look

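The Csn3 and Csn1s1 levels changed from duct to TEB in ways that differed between basal and luminal cells, by a test of the difference itself in edgeR. For Csn3 the basal change exceeded the luminal one by 6.76 ± 0.51 on the log2 scale (adjusted p = 4.87e-07): all 4 basal TEB libraries were above all 4 basal duct libraries, and each luminal gate had both TEB libraries below both duct libraries. For Csn1s1 the difference was 3.68 ± 0.88 (edgeR adjusted p = 0.00706), with a range of 3.24 to 5.01 over the alternatives. The call ended in limma-voom (adjusted p = 0.17), and the basal change alone did not pass in edgeR (0.89 ± 0.73, adjusted p = 0.359). Among the luminal gates, YFP-negative TEBs were above YFP-negative ducts, and the other 3 luminal gates had TEBs below ducts. The cause was not tested.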

How the results depend on the processing

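Of the single-gene differences refitted under the alternatives, 2205 kept their direction and their side of the threshold, 105 lost and 61 gained a call, and 17 changed sign, none of them a called difference. Of the levels, 102 of 108 moved by less than the spread between replicates with raw library totals. The causes of the changes below were not tested. A gene at 0 counts in both groups gave no value under some alternatives. Where 1 library was left, it is assumed to vary like the other groups. Depth limits Wap, Glycam1 in TEBs and the caseins of Elf5-low TEBs, since 3 counts correspond to 0.057 to 0.096 CPM.

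Counts of the 9 genes called moved by over 1.5 times as follows. DESeq2 called 3 for the difference of TEB changes between Elf5-high and Elf5-low gates (0 in edgeR), 4 for that between basal and luminal cells (2 in edgeR), 8 for YFP-positive cells from duct to TEB (4 in edgeR) and 2 for the difference of TEB changes between GFP-positive and YFP-negative cells (0 in edgeR), a comparison chosen after the data were seen. Limma-voom called 4 from duct to TEB in Elf5-high cells (7 in edgeR), 4 in Elf5-low cells (8), 3 in basal cells (5), 4 in GFP-negative cells (8) and 3 in basal cells of the Elf5 model (6). It called 1 for the basal against luminal difference (2) and 2 for the GFP-positive against YFP-negative difference (0). With only the groups compared in the fit, 4 were called between GFP-positive and YFP-negative ducts (7 with all groups), 5 from duct to TEB in GFP-positive cells (8), 5 in YFP-negative cells (3), 2 in GFP-negative cells (8) and 2 for the GFP-positive against YFP-negative difference (0). Without the 2 libraries with keratinocyte transcripts, 3 were called between GFP-positive and YFP-negative TEBs (5).

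Counts over all genes moved as well. DESeq2 called 2200 genes from duct to TEB in YFP-positive cells (1424 in edgeR) and 619 for the GFP-positive against YFP-negative difference (205). With only the groups compared, 127 genes were called in GFP-negative cells (3351), 2622 in YFP-positive cells (1424) and 457 for that difference (205).

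Leaving out 1 library at a time, the genes called between GFP-positive and YFP-negative cells ranged from 1343 to 1824 in ducts (2528 with all libraries) and from 670 to 1341 in TEBs (1991). From duct to TEB they ranged from 2099 to 3195 in GFP-positive (4120), 1769 to 2162 in YFP-negative (3341), 1422 to 4258 in GFP-negative (3351), 464 to 816 in YFP-positive (1424) and 2400 to 3372 in basal PR-cre cells (4474). They ranged from 51 to 119 for the GFP-positive against YFP-negative difference (205). Of the 9 genes, 1 to 3 were called between GFP-positive and YFP-negative TEBs, 4 to 7 from duct to TEB in GFP-positive, 5 to 8 in GFP-negative, 2 to 4 in YFP-positive and 3 to 5 in basal cells, and 0 to 2 for the Elf5-high against Elf5-low difference, where the 2 needed the loss of a library.

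Signs changed for differences that were not called. Csn1s2a in basal PR-cre cells was -0.01 in DESeq2, and without the 2 libraries with keratinocyte transcripts the Elf5-high against Elf5-low difference for Lalba was -0.08 and the TEB change of Csn2 in YFP-negative cells 0.05. Leaving out 1 library, the TEB change ranged from -0.09 to 1.39 for Csn1s1 in basal cells of the Elf5 model, -0.91 to 6.06 for Csn1s2a in basal PR-cre cells, -2.87 to 0.76 for Csn1s2a in all basal cells, -2.74 to 0.06 for Wap in Elf5-high cells, and -0.85 to 0.41 for Csn2 and -3.35 to 2.24 for Wap in YFP-negative cells. Glycam1 ranged from -0.02 to 3.46 between GFP-positive and YFP-negative ducts and from -2.63 to 1.74 between Elf5-high and Elf5-low TEBs, and Wap from -4.36 to 1.23 for the GFP-positive against YFP-negative difference.

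The labels give every group the replicate numbers 1 and 2 without saying that a number marks a shared animal or day. Deviations of same-numbered libraries from their group means had correlations of 0.003 to 0.152 over 30 pairs of groups, all above 0 and 4 above 0.1. In ducts of the Elf5 model, Csn1s2a, Csn2 and Glycam1 were higher in replicate 1 in every gate, and Csn1s1 in GFP-positive and basal cells only. These values neither show nor exclude a pairing. The main fit did not pair the samples, and percentages between same-numbered libraries match them by label only. With the replicate block, 1 of the 9 genes was called for the GFP-positive against YFP-negative difference (0 without it), and Ltf between GFP-positive and YFP-negative ducts was -0.06 (0.23 without it). The block moved no count over all genes by more than 1.5 times.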

Other observations

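In YFP-positive duct replicate 2, Csn1s1, Csn1s2a and Csn2 stood at 76.0%, 189% and 497% of their level in YFP-negative duct replicate 2, and Glycam1 at 397%, whereas Csn3, Lalba, Trf and Ltf stood at 3.21% to 4.26%. The same 3 caseins were at 0.0864%, 0.0748% and 0.0764% of their level in GFP-positive duct replicate 1, with Csn3 at 0.701%, Lalba at 0.194% and Trf at 0.234%. The pattern was noticed in 1 library and has no replicate: in replicate 1 of that group the 7 genes other than Wap and Glycam1 stood at 5.50% to 18.4%.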
